A study of Mus musculus with 8 samples.

Results

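The lymphoid priming genes studied here are 7 genes, Flt3, Il7r, Notch1, Gpr171, Satb1, Ikzf1 and Dntt, which were matched by symbol to 7 of the 27998 genes in the count tables of all 4 libraries. The data came from Lin- cKit+ (LK) bone marrow cells of 16 wildtype mice aged 12 to 14 weeks, to which sorted HSCs (LK CD150+ CD48- CD34-) had been added. In groups of 4, mice received 100 µl of PBS (control) or 1 subcutaneous injection of IFNα (50000 IU per 20 g of mouse) and were killed 3, 24 or 72 h after it. The 4 mice of a group were marked with 4 hashtag antibodies and pooled in 1 droplet library, so a time point and its library cannot be told apart. The added HSCs mean that the proportions of cells are those of the sorted mixture and not of marrow.

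These genes mark the first steps from a multipotent progenitor toward lymphocytes. Flt3 encodes the receptor for FLT3 ligand, Il7r the IL-7 receptor α chain and Notch1 a receptor whose signal directs the T cell fate, whereas Gpr171 encodes an orphan G protein-coupled receptor placed among purinergic receptor genes. Satb1 is a chromatin organizer needed for lymphoid development, Ikzf1 encodes Ikaros, a zinc finger factor required for lymphocytes, and Dntt encodes terminal transferase, which adds nucleotides at the joints of rearranged antigen receptor genes. Lymphoid-primed multipotent progenitors (LMPPs) carry several of these transcripts at low levels before any receptor gene is rearranged, and this early expression is called priming.

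Cells were kept when they carried a single hashtag, with mitochondrial counts of no more than 5% and 700 or more genes detected, which left 2474 control cells and 1661, 3462 and 2449 cells at 3, 24 and 72 h. The median count of unique molecular identifiers (UMIs) per kept cell was 18964.5 in control and 12017, 18953.5 and 14763 after 3, 24 and 72 h. Control mouse 4 had 58 kept cells, against 764 to 827 in the other control mice. Kit was detected in 63.3% to 81.4% of cells of each library, whereas Cd3e and Ly6g were each detected in at most 0.162% of cells. Isg15, an interferon-stimulated gene, averaged 33.7 CPM (counts scaled to a total of 1000000) in control and 1573, 97.0 and 19.5 CPM at 3, 24 and 72 h. Control cells were clustered without the 7 genes, and the cluster names were passed to the treated cells, also without them. The cluster called LMPP-like was led by Cd34, Bcl2, Egfl7 and Lsp1, with Wfdc17 and Cd27 also among its 10 genes of largest fold. The HSC-like class held 2 clusters with Hlf and Ltb among those genes. Of these, cluster 4 was led by Wfdc17, which it shared with the LMPP-like cluster, and cluster 7 by Jchain and Mzb1, genes of antibody secretion. Jchain was seen in only 14 of 417 HSC-like control cells, and 10 cells held 4811 of its 4815 UMIs. It therefore does not describe most cells of the class. The name HSC-like rests on marker genes, and Jchain and Ly6d, also markers used for the LMPP name, were among the leading genes of cluster 7. In control, cluster 4 held 278 CPM of Dntt, 81.7 of Flt3 and 80.3 of Satb1 (pooled over mice). Cluster 7 held 124, 52.1 and 45.1 CPM, and the LMPP-like cluster 164, 65.7 and 66.1 CPM. These genes thus do not set the class apart from LMPP-like cells, and whether it also holds lymphoid-primed progenitors was not tested.

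In the annotation of mouse build GRCm38, Notch1 lies on chromosome 2 (26457903 to 26516663, minus strand), Gpr171 on chromosome 3 (59096448 to 59101821, minus), Flt3 on chromosome 5 (147330741 to 147400489, minus) and Ikzf1 on chromosome 11 (11685003 to 11772926, plus). Il7r lies on chromosome 15 (9505788 to 9530176, minus), Satb1 on chromosome 17 (51736187 to 51833290, minus) and Dntt on chromosome 19 (41029275 to 41059525, plus). Gpr171 sits inside Med12l on the opposite strand, and Satb1 overlaps 5 long noncoding genes on its own strand, so reads in the shared stretches of Satb1 may have been split or left out. The 250 bases upstream of the RefSeq start are shown (GRCm38.p6, written 5′ to 3′ on the gene's strand) for Flt3, Notch1 and Satb1, which fell together in LMPP-like cells at 3 h, and for Dntt, whose levels differed most between clusters. Capitals mark the E-box letters CANNTG, which E proteins of lymphoid progenitors are known to bind. The windows are chr5:147400490-147400739 for Flt3, chr2:26503823-26504072 for Notch1, chr17:51833291-51833540 for Satb1 (all minus strand) and chr19:41029025-41029274 for Dntt (plus strand).
Flt3: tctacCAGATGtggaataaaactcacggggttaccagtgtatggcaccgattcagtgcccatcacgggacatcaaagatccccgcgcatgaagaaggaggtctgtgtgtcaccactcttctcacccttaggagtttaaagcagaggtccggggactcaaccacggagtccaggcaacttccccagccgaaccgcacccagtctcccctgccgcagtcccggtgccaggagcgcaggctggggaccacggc
Notch1: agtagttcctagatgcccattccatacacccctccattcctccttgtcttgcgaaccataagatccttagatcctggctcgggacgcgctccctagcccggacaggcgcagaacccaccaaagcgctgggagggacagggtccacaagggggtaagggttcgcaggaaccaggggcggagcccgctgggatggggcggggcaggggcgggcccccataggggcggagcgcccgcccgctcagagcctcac
Satb1: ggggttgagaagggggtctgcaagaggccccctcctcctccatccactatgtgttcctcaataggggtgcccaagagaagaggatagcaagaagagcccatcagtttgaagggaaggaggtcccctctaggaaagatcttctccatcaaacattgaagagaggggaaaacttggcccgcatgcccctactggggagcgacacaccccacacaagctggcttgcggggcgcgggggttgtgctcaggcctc
Dntt: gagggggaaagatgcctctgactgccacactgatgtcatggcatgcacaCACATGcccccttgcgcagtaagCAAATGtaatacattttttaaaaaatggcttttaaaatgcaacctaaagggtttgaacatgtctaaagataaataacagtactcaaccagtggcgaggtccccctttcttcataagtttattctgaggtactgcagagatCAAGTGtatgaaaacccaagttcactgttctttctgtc
The E-box letters occurred 3 times in the Dntt window and 1 time in the Flt3 window, and not in those of Notch1 and Satb1 shown here. Counting every annotated start, RefSeq gave 11 windows for 6 of the 7 genes, and 5 of the 11 held CANNTG on either strand, against 66.2% of all 32851 windows of the same length. The letters GAAANNGAAA of the interferon-stimulated response element, searched on both strands, were in 0 of the 11 windows and in 2.98% of all windows. TTCNNNGAA, the STAT site of the interferon γ type, was in 1 of the 11 windows, that of Il7r, and in 7.02% of all windows.

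Before any treatment, Dntt, Flt3, Satb1 and Gpr171 were highest in early clusters, Notch1 was also present in myeloid clusters, Il7r was scarce and Ikzf1 was found in all clusters. In the control cells Dntt reached 278 CPM (pooled over mice) in HSC-like cluster 4, 223 CPM in the unnamed cluster 12 and 164 CPM in the LMPP-like cluster, and it stayed at or below 15.6 CPM outside the HSC-like, LMPP-like and unnamed clusters 8 and 12. Per mouse, Dntt averaged 179 ± 130 CPM in HSC-like cells (SD, n = 4) and 166 ± 55.4 CPM in LMPP-like cells (n = 3, since control mouse 4 had only 8 such cells). The spread between mice was thus larger than the difference between these classes. In megakaryocyte progenitor-like (MK-like) cells the Dntt level was 15.8 ± 23.3 CPM (n = 3), almost all of it from 1 mouse at 41.7 CPM on the fitted scale. In myeloid progenitor-like cells Dntt was near background at 0.440 ± 0.472 CPM (n = 4). The unnamed cluster 8 was led by the cell cycle genes Nusap1, Prc1 and Cenpf, and its Dntt level was 163 ± 125 CPM (n = 3).

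**Figure D1:**
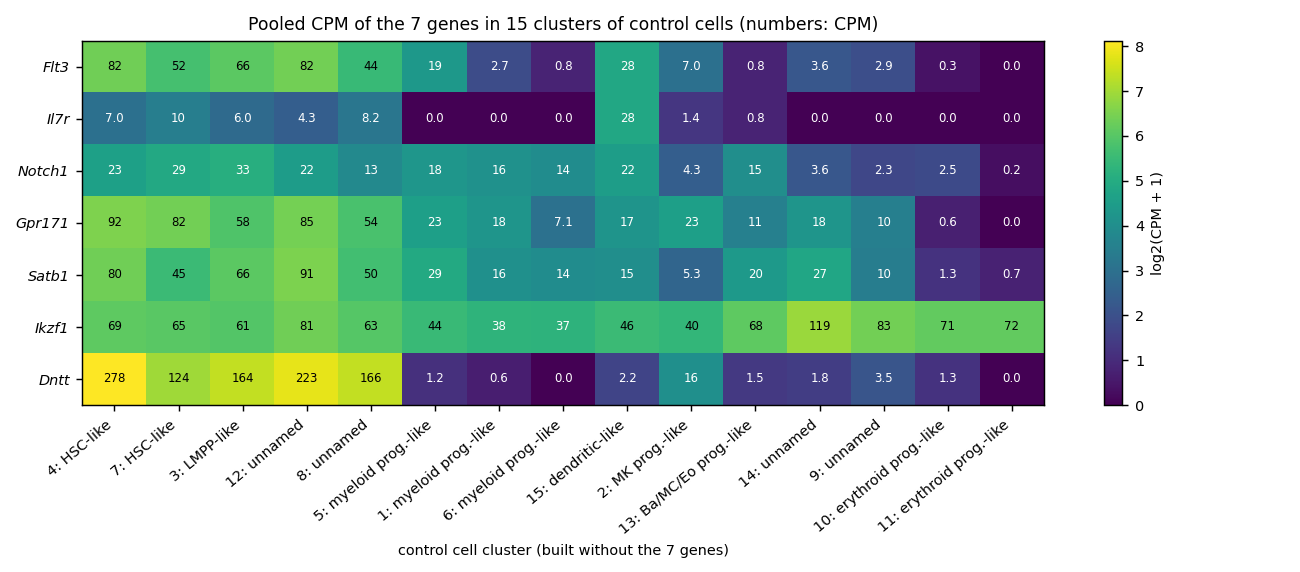
Levels of the 7 genes (rows) in 15 clusters of control cells (columns, built without these genes), given as CPM pooled over the control mice and coloured by log2(CPM + 1). Dntt is at 124 to 278 CPM in clusters 3, 4, 7, 8 and 12 and at most 15.6 CPM elsewhere, whereas Ikzf1 is above 36 CPM in every cluster.

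Among the receptors, Flt3 averaged 66.4 ± 9.22 CPM in LMPP-like cells (SD, n = 3) and 57.3 ± 34.3 CPM in HSC-like cells (n = 4), which do not differ beyond their spread. In the unnamed cluster 12, of 79 control cells, Flt3 was at 83.0 ± 3.70 CPM (n = 3). It was at 43.4 ± 16.4 CPM in cluster 8, 31.2 ± 13.1 CPM in dendritic-like cells (n = 2) and 8.67 ± 5.44 CPM in myeloid progenitor-like cells. In erythroid progenitor-like cells it was 0.119 ± 0.206 CPM. Notch1 had a flatter order, with 34.0 ± 4.92 CPM in LMPP-like, 27.4 ± 7.28 CPM in HSC-like and 18.7 ± 5.57 CPM in myeloid progenitor-like cells, neighbours whose ranges overlap within their SDs. Among the named classes Gpr171 was highest in HSC-like cells at 81.0 ± 17.8 CPM, with LMPP-like cells within its spread at 59.7 ± 16.3 CPM, and MK-like cells at 22.7 ± 3.03 CPM. Its level in the unnamed cluster 12 was 83.8 ± 12.4 CPM (n = 3). Il7r was scarce everywhere. Its 129 control UMIs came from 38 of 2474 cells, its mean was 6.13 ± 5.81 CPM in LMPP-like and 6.19 ± 6.48 CPM in HSC-like cells, and its highest pooled level, 28.3 CPM, was in the dendritic-like cluster of 35 cells. That level rested on 13 UMIs, and the 2 mice with enough of these cells were at 0 and 80.9 CPM.

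Of the nuclear factors, Satb1 stood at 66.5 ± 4.62 CPM in LMPP-like and 54.1 ± 33.0 CPM in HSC-like cells and at 20.0 ± 2.86 CPM in myeloid progenitor-like cells, which express it at a steady lower level. In cluster 12 Satb1 was at 88.8 ± 27.3 CPM (n = 3). Ikzf1 was 62.1 ± 14.0 CPM in LMPP-like, 69.0 ± 7.10 CPM in HSC-like and 72.2 ± 5.50 CPM in erythroid progenitor-like cells, which do not differ beyond their spread, and 37.7 ± 3.19 CPM in myeloid progenitor-like cells. Its pooled level was highest, at 119 CPM, in the unnamed cluster 14, led by Gzmb and Scin.

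The genes whose control pattern was most like that of each member were taken over the 14 control clusters with at least 50 cells, which share 1 library, so the correlations describe these clusters only. Dntt was most like Slc16a11 (Pearson's r = 0.976), and Il7r was also most like Slc16a11 (0.954), with Dntt next (0.951). Flt3 was most like Wfdc17 (0.971), Satb1 was most like Mkl1 (0.971) and Notch1 was most like Ablim1 (0.962). Gpr171 was most like Cd27 (0.987), a receptor used to identify lymphoid-primed progenitors, and Ikzf1 was most like 4932422M17Rik (0.933).

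Priming differed between cells of a class. In LMPP-like control cells 81 of 277 cells carried any Dntt UMI, and the 10 cells with most of them held 56.2% of its 1009 UMIs. The same share was 75.1% of 350 UMIs at 3 h, 29.3% of 2369 at 24 h and 53.2% of 831 at 72 h. The Dntt level of a mouse therefore rested on few cells, unlike Flt3, for which the top 10 LMPP-like control cells held 18.6% of 404 UMIs, or Satb1, for which they held 17.98% of 406. At 3, 24 and 72 h, 36 of 211, 148 of 548 and 77 of 311 LMPP-like cells carried Dntt. The top 10 cells were thus an unequal part of them, and the Dntt shares are not compared between times.

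Cells with Dntt also carried most of the other members more often. After each cell was thinned to 5000 UMIs, 64 LMPP-like control cells had a Dntt UMI and 213 had none, with median depths of 17805.5 and 22875 UMIs before thinning. Flt3 was detected in 51.6% of the former and 23.0% of the latter, Notch1 in 28.1% and 8.45%, Satb1 in 45.3% and 25.4% and Gpr171 in 45.3% and 21.1%. Il7r was seen in 9.38% of the Dntt-positive cells and in 0 of the 213 others, which allows a share of up to 1.41% for cells with a UMI at this thinned depth and sets no limit on cells that express it. Each of these 5 genes was more frequent in the Dntt-positive cells of all 3 mice, whereas Ikzf1, at 26.6% against 24.9%, was so in 1 of 3. HSC-like control cells with Dntt (72, against 334 without) were deeper before thinning, at a median of 12716.5 against 11056 UMIs, and showed Flt3 in 54.2% against 14.7%, Satb1 in 58.3% against 13.5% and Ikzf1 in 51.4% against 21.6%. Since cells of 1 mouse share their source, these shares are given with no test.

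**Figure D2:**
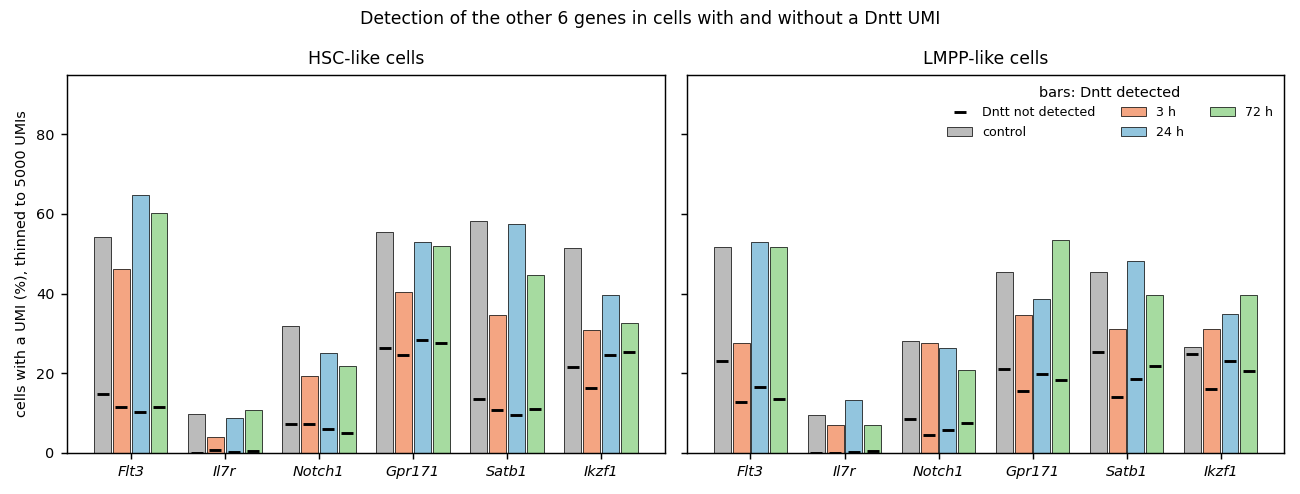
Share of cells with a UMI of each of the other 6 genes (y axis, percent, cells thinned to 5000 UMIs) among cells with Dntt (bars, coloured by group) and without it (black dashes), pooled over mice, for HSC-like (left) and LMPP-like cells (right). The bar is above its dash for every gene and group. For Flt3 in LMPP-like cells it stands at 51.6% in control and 27.6% at 3 h, over dashes at 23.0% and 12.8%.

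The number of the 7 genes detected per LMPP-like cell, at 5000 UMIs, averaged 1.498 in control and 0.900, 1.29 and 1.25 after 3, 24 and 72 h. Cells with 4 or more of them made up 7.58%, 2.39%, 7.13% and 7.74% of LMPP-like cells in that order. In HSC-like cells the same share was 10.3% in control and 3.31%, 4.60% and 5.53% after IFNα. These values pool the cells of all mice and were not tested. Control mouse 3 gave 146 of the 406 HSC-like control cells used. Satb1 was seen in 30.1% of its cells, against 8.33% to 22.1% in the other control mice, and Dntt in 24.7%, against 10.4% to 25.0%.

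LMPP-like cells lost transcripts of 4 of the 7 genes 3 h after IFNα, and Flt3 and Satb1 rose again by 24 h. Sums of UMIs per mouse were tested by the quasi-likelihood F test of edgeR on 9327 genes, with Benjamini-Hochberg adjusted p under 0.05 as the threshold, and levels are CPM scaled by TMM factors. Of all genes tested, 5.91% fell at 3 h by this rule. The median log2 fold change of the 7 genes was -0.68, and that of all genes tested was -0.04. Of the genes called at 3 h 63.6% were higher, and with scaling by library size alone this was 34.8% and the median of all genes -0.17, with the same 4 members passing. As the genes and time points were chosen with earlier results of these data known, the count describes these genes only.

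Flt3 was at 56.4, 62.3 and 73.9 CPM in control mice 1 to 3 and at 35.2, 37.4, 33.5 and 42.7 CPM in the 4 mice at 3 h. Every 3 h mouse was below every control mouse. The log2 fold change was -0.79 ± 0.17 (SE, edgeR adjusted p = 0.000806). At 24 h Flt3 was at 54.9, 56.7, 67.7 and 53.5 CPM, above all the 3 h mice, and the step from 3 to 24 h, 0.65 ± 0.16 on the log2 scale, passed the test as well (edgeR adjusted p = 0.00457; 4.42% of all genes rose in this step). At 72 h the mice ranged from 52.0 to 84.1 CPM and overlapped with control.

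Satb1 followed the same course. It was at 60.0, 68.5 and 64.4 CPM in control, at 41.6, 28.9, 39.9 and 47.7 CPM at 3 h and at 58.5, 60.9, 67.7 and 53.5 CPM at 24 h. The 3 h mice did not overlap with either of the other groups. Its log2 fold change was -0.68 ± 0.15 at 3 h (edgeR adjusted p = 0.000775), and the step to 24 h was 0.58 ± 0.14 (edgeR adjusted p = 0.00287). At 72 h Satb1 ranged from 51.4 to 65.8 CPM.

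Notch1 fell at 3 h from 31.4, 29.0 and 38.3 CPM to 20.8, 20.4, 9.57 and 17.6 CPM, without overlap. The log2 fold change was -1.06 ± 0.25 (edgeR adjusted p = 0.00256), from 202 UMIs in control and 51 at 3 h. Without 3 h mouse 3, the lowest, it was -0.75 and did not pass (adjusted p = 0.066 by edgeR). Notch1 was at 24.9, 21.4, 32.0 and 21.2 CPM at 24 h and at 22.5, 30.4, 20.1 and 14.0 CPM at 72 h, with log2 fold changes against control of -0.44 ± 0.17 and -0.62 ± 0.20 that missed the threshold (edgeR adjusted p = 0.122 and 0.0525).

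Ikzf1 was at 46.8, 59.5 and 73.9 CPM in control and at 33.6, 32.3, 52.6 and 41.4 CPM at 3 h, so that 1 treated mouse lay within the control range. Its log2 fold change of -0.50 ± 0.17 passed the test narrowly (edgeR adjusted p = 0.0448) and not without control mouse 3 (-0.31, adjusted p = 0.29 by edgeR), nor without control mouse 2 or 3 h mice 1, 2 or 4, where adjusted p was 0.083 to 0.13, nor by DESeq2 (adjusted p = 0.06). Dntt ranged from 122 to 221 CPM in control and was at 84.7, 209, 71.8 and 105 CPM at 3 h, 187, 121, 298 and 206 CPM at 24 h and 135, 249, 114 and 38.0 CPM at 72 h. The groups overlapped at every time, and its log2 fold change of -0.55 ± 0.36 at 3 h missed the threshold (edgeR adjusted p = 0.34). Gpr171 differed from control by -0.26 ± 0.19 on the log2 scale at 3 h, within the spread of the mice. Il7r, with 37 control UMIs and 10 at 3 h, gave -0.95 ± 0.87, which at this depth allows no statement of a direction. At 24 and 72 h, 0 of the 7 genes passed against control in edgeR, as against 7.67% and 6.12% of all genes in either direction.

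**Figure D3:**
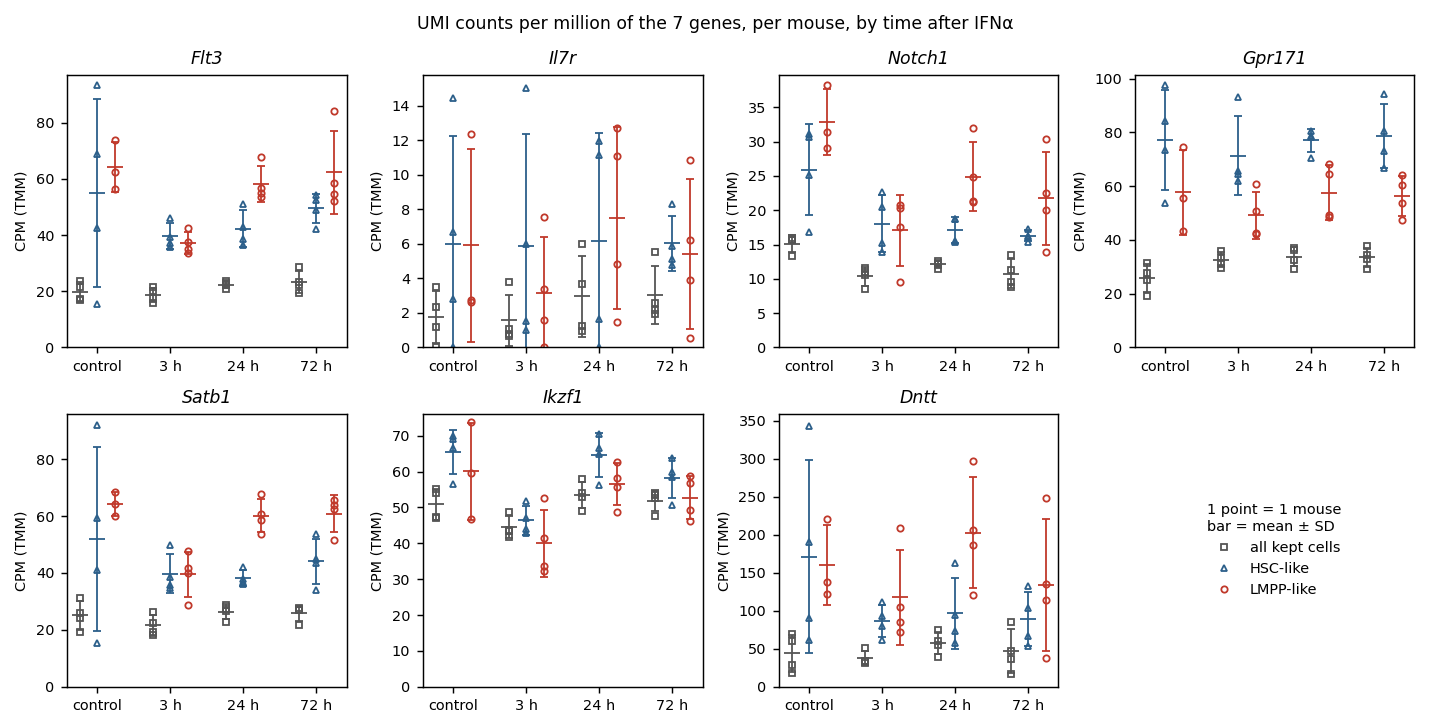
CPM scaled by TMM (y axis) of the 7 genes in each mouse (points) in control mice or those killed 3, 24 or 72 h after IFNα (x axis), over all kept cells (squares), HSC-like (triangles) and LMPP-like cells (circles), with mean ± SD. In LMPP-like cells the 3 h points of Flt3 (33.5 to 42.7 CPM), Satb1 (28.9 to 47.7 CPM) and Notch1 (9.57 to 20.8 CPM) lie below all control points.

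The share of LMPP-like cells with a UMI was lower at 3 h as well, without passing correction. After thinning to 5000 UMIs, the share of cells with Flt3 was 29.7% ± 6.4 in control (SD, n = 3) and 15.5% ± 3.0 at 3 h (n = 4), and that with Satb1 was 29.98% ± 4.6 and 15.98% ± 2.5. For Notch1 the shares were 13.1% and 8.15%, for Dntt 23.2% and 14.0% and for Ikzf1 25.5% and 17.95%. Each of these 5 differences reached the smallest two-sided p that an exact permutation test of 3 against 4 mice allows, 0.0286, as did Flt3 at 72 h, at 20.8%. Adjusted over 42 such values the smallest p was 0.133, and a value could pass only if most of the 42 reached 0.0286. Unthinned, Flt3 was seen in 60.1% of control and 34.8% of 3 h cells, at median depths of 20938 and 15973 UMIs. In erythroid progenitor-like control cells, which should lack these genes apart from Ikzf1, the thinned shares of the other 6 were at most 0.875%, at a median depth of 29677 UMIs.

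HSC-like cells showed lower levels of 4 of the 7 genes at 3 h and of 3 at 24 h, but none of these calls passed without control mouse 3. For Dntt, Flt3 and Satb1 the control mice of this class were also far apart. Of 9892 genes tested, 7.57% fell at 3 h, 1.41% at 24 h and 1.75% at 72 h. Library size scaling lowered the median of all genes at 3 h from -0.04 to -0.24 and the share of higher genes among those called from 62.2% to 25.5%. Dntt was at 90.2, 191, 343 and 61.3 CPM in control mice 1 to 4, the last with 12 HSC-like cells. It was at 112, 79.9, 61.5 and 93.6 CPM at 3 h, 57.0, 73.1, 93.9 and 163 CPM at 24 h and 67.3, 132, 104 and 54.0 CPM at 72 h. Every group overlapped with control. The fitted log2 fold changes of Dntt, -1.29 ± 0.32, -1.05 ± 0.27 and -1.21 ± 0.28, passed the test (edgeR adjusted p = 0.00274, 0.013 and 0.00527). Without control mouse 3, at 343 CPM, they were -0.67, -0.43 and -0.59 and did not pass (edgeR adjusted p = 0.15, 0.53 and 0.34), nor did they pass by DESeq2 with all mice (adjusted p = 0.17, 0.37 and 0.23).

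The same mouse stood highest for Flt3 and Satb1 in HSC-like cells. Flt3 was at 42.6, 68.8, 93.2 and 15.3 CPM in control and between 35.8 and 46.2 CPM at 3 h. The log2 fold change of -0.75 ± 0.20 (edgeR adjusted p = 0.00447) became -0.40 without control mouse 3 (adjusted p = 0.17 by edgeR). Satb1 was at 40.9, 59.2, 92.1 and 15.3 CPM in control and between 34.6 and 49.7 CPM at 3 h, with -0.67 ± 0.20 (edgeR adjusted p = 0.0156) and -0.26 without that mouse (0.41). At 24 h Flt3 fell by 0.65 and Satb1 by 0.73 on the log2 scale (edgeR adjusted p = 0.0115 and 0.00662), and without control mouse 3 the values were -0.31 and -0.32, which did not pass (0.45 and 0.42). With finer clusters (Leiden resolution 1.2) the 3 h changes of Dntt, Flt3 and Satb1 were -0.80, -0.49 and -0.46 and did not pass either (edgeR adjusted p = 0.078, 0.085 and 0.12). Ikzf1 was at 56.6, 66.6, 69.9 and 69.0 CPM in control and at 43.0, 47.1, 51.8 and 43.9 CPM at 3 h, with no overlap. Its change was -0.44 ± 0.13 (edgeR adjusted p = 0.0124), which without control mouse 3 was nearly as large, -0.37, at an adjusted p of 0.086 in edgeR, and it rose again by 0.43 ± 0.12 from 3 to 24 h (edgeR adjusted p = 0.00681; 6.34% of all genes rose).

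Notch1 in HSC-like cells was at 16.8, 25.2, 31.1 and 30.7 CPM in control and at 22.7, 20.5, 15.2 and 13.9 CPM at 3 h, with ranges of 15.4 to 18.7 CPM at 24 h and 15.4 to 17.3 CPM at 72 h. Control mouse 1 overlapped with each group. Its log2 fold changes of -0.48 ± 0.21, -0.54 ± 0.18 and -0.60 ± 0.19 missed the threshold (edgeR adjusted p = 0.106, 0.0779 and 0.0579), and without control mouse 1 all 3 passed, at -0.70, -0.75 and -0.81. Library size scaling also brought the 3 h and 72 h values past it. Gpr171 differed from control by -0.25 ± 0.14, -0.13 ± 0.12 and -0.10 ± 0.12 and Il7r by -0.69 ± 0.72, -0.39 ± 0.58 and -0.41 ± 0.60 on the log2 scale, none of which passed in edgeR.

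When HSC-like and LMPP-like cells were summed together, an alternative added after the data had been seen, 5 of the 7 genes fell at 3 h, as did 9.23% of 10818 genes. The log2 fold changes were -0.75 ± 0.15 for Flt3, -0.67 ± 0.14 for Satb1, -0.77 ± 0.17 for Notch1 and -0.45 ± 0.12 for Ikzf1 (edgeR adjusted p = 0.000202, 0.00036, 0.00116 and 0.0045). These 4 passed whichever single mouse was left out. Dntt, at -0.89 ± 0.30 (edgeR adjusted p = 0.0275), did not pass without control mouse 2, control mouse 3 or 3 h mouse 3, with -0.69 to -0.78. At 24 h Notch1 was lower by -0.47 (edgeR adjusted p = 0.026; 2.7% of all genes lower), a call lost without control mouse 2, control mouse 3, 24 h mouse 2 or 24 h mouse 4 (-0.32 to -0.49). In the same sums Notch1 was still lower at 72 h, by -0.65 ± 0.15 (edgeR adjusted p = 0.0034, with 4% of all genes lower), and this call also held without any 1 mouse. With all mice, Notch1 passed at 72 h in neither class alone. The sums held 417 HSC-like and 277 LMPP-like cells in control, 546 and 211 at 3 h, 843 and 548 at 24 h and 736 and 311 at 72 h. A shift in the mix of both classes and less RNA per cell cannot be told apart in them.

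**Figure D4:**
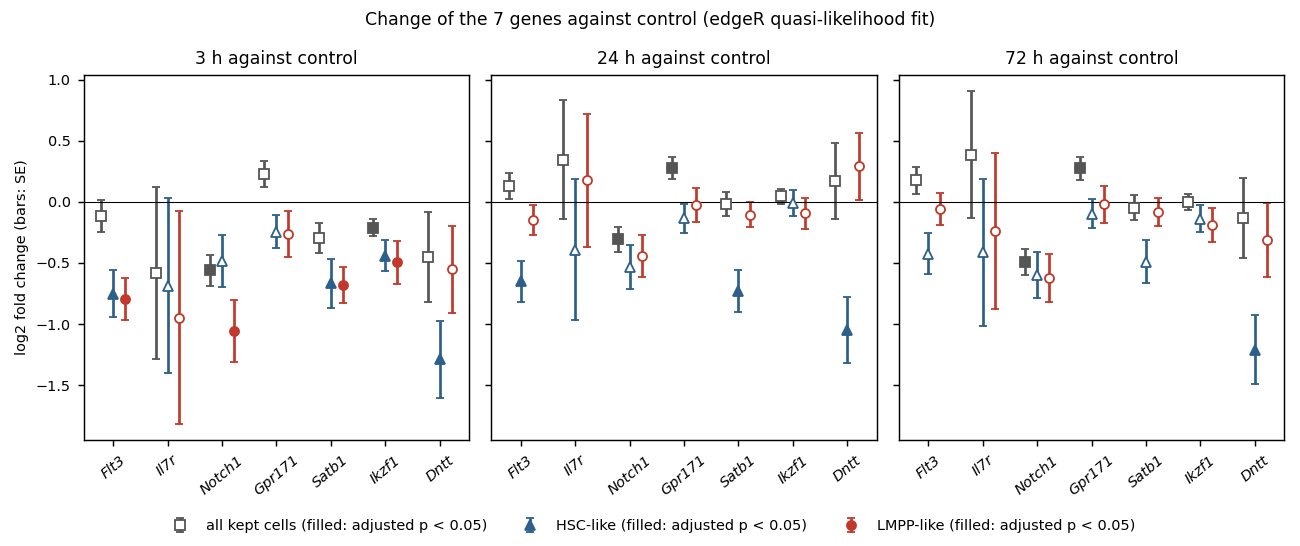
Log2 fold change against control (y axis, bars are ± SE of the edgeR fit) of the 7 genes at 3, 24 and 72 h (panels), over all kept cells (squares), HSC-like (triangles) and LMPP-like cells (circles). Filled symbols have an adjusted p under 0.05. At 3 h Flt3 and Satb1 are filled in both classes and open over all cells, and Dntt is filled in HSC-like cells only.

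Whether a response differed between classes was tested separately. Exact permutation of mice, with 84 differences of the response and a smallest possible p of 0.0286, could pass after adjustment only if most of them reached that p, so that its smallest adjusted p of 0.873 is not read further. An edgeR fit of both classes with the mouse as a block, added after seeing the data, called 3. The Dntt change at 24 h was higher in LMPP-like than in HSC-like cells by 1.31 on the log2 scale (edgeR adjusted p = 0.0097), and 0.632% of all genes were called in that comparison. Without control mouse 3, or without 24 h mouse 3, this difference was 0.60 or 1.09 and did not pass (edgeR adjusted p = 0.50 and 0.065). The Dntt change was also higher than in MK-like cells, by 3.52 (edgeR adjusted p = 0.000273; 0.257% called), but without control mouse 2, which held most of the MK-like Dntt, the difference was 1.25 (adjusted p = 0.87 by edgeR). The Flt3 change at 24 h was lower in LMPP-like than in myeloid progenitor-like cells, by -0.95 (edgeR adjusted p = 0.0131; 0.743% called), and this was lost without control mouse 2, control mouse 3 or 24 h mouse 2 (-0.99, -0.81 and -0.62). For LMPP-like against HSC-like cells at 3 h, no member passed in the edgeR fit, which called 1.13% of all genes. The largest estimates were 0.73 ± 0.38 for Dntt and -0.62 ± 0.32 for Notch1 (unadjusted p = 0.0603 and 0.0627 in the edgeR fit).

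Summed over all kept cells, Notch1 was lower at all 3 times and most other members did not pass. In these sums fewer cells of a type and less RNA per cell cannot be told apart. Of 12042 genes tested, 19.2% fell and 19.7% rose at 3 h, so that 2 of 7 lower members at that time is close to the background, and with library size scaling 25.6% instead of 50.7% of the called genes were higher. Notch1 was at 13.3, 15.9, 15.7 and 15.7 CPM in control and at 10.9, 11.6, 8.47 and 10.5 CPM at 3 h, 12.2, 11.5, 12.6 and 12.3 CPM at 24 h and 9.59, 13.5, 11.3 and 8.75 CPM at 72 h. The 3 and 24 h mice were all below control, and 1 mouse at 72 h overlapped. The log2 fold changes were -0.56 ± 0.13, -0.31 ± 0.10 and -0.49 ± 0.11 (edgeR adjusted p = 0.00126, 0.025 and 0.00127; 13.8% and 18.5% of all genes fell at 24 and 72 h), of which the one at 24 h did not pass without control mouse 2, control mouse 3 or 24 h mouse 2 (-0.27 each, adjusted p = 0.084 to 0.097 by edgeR), nor by DESeq2 with all mice (0.059). Ikzf1 fell by 0.21 ± 0.07 on the log2 scale at 3 h (edgeR adjusted p = 0.0267), and this was lost by DESeq2 (adjusted p = 0.055) and without any of control mice 2 and 3 and 3 h mice 1, 2 and 4. Flt3, at -0.12 ± 0.13, Satb1, at -0.30 ± 0.12, Dntt, at -0.45 ± 0.37, and Il7r, at -0.58 ± 0.70, did not pass at 3 h. Satb1, whose edgeR adjusted p was 0.0583, passed with the likelihood ratio test (0.047), library size scaling (0.0044), no filter on low counts (0.024) and no limits on mitochondrial share and genes (0.028). Class shares were then held at those of control. Log2 ratios of mean levels at 3 h were -0.40 for Flt3, -0.58 for Satb1, -1.01 for Dntt, -0.48 for Ikzf1 and -0.80 for Il7r. Adjusted p was 0.24 to 0.65 by exact permutation. Ikzf1 reached the smallest unadjusted p possible, 0.0286, and a value could pass adjustment only if most values reached it. This test therefore cannot show whether the Ikzf1 call holds. The weighted levels were CPM without TMM factors, over 9 of 11 classes and with no lower limit on cells. They thus differ from the fits in more than the class shares.

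Gpr171 moved the other way in these sums. It was at 25.2, 27.7, 31.4 and 19.1 CPM in control, at 33.5, 36.0, 31.5 and 29.5 CPM at 3 h (0.23 ± 0.11, edgeR adjusted p = 0.0948), at 36.4, 32.4, 36.9 and 29.3 CPM at 24 h and at 34.4, 33.0, 29.0 and 37.7 CPM at 72 h. At 24 and at 72 h 1 treated mouse lay within the control range. The log2 fold change was 0.28 ± 0.09 at 24 h and 0.28 ± 0.10 at 72 h (edgeR adjusted p = 0.0275 and 0.0277), when 14.5% and 18.9% of all genes rose, and either call was lost without 1 of 4 single mice (0.21 to 0.27). The HSC-like class, where Gpr171 is highest among the named classes, made up 14.1% to 20.7% of the cells of control mice and 21.9% to 25.7% and 27.6% to 31.6% at these times. With the class shares held at those of control, the log2 ratio of mean Gpr171 levels was -0.31, 0.01 and -0.09 after 3, 24 and 72 h. These levels, too, were CPM without TMM factors, so the scaling as well as the class shares differed from the fits. The same weighting gave -0.70, -0.36 and -0.53 for Notch1 at 3, 24 and 72 h, with adjusted p = 0.24 each by exact permutation. A value could pass there only if most of the 21 values reached the smallest unadjusted p of 0.0286, so these p are not read further. LMPP-like cells made up 11.8% ± 1.62 of control cells (SD, n = 4) and 12.7% ± 1.57, 15.9% ± 1.94 and 12.96% ± 1.94 after IFNα, where the largest difference had an exact permutation p of 0.0571 (two-sided, smallest possible 0.0286).

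In myeloid progenitor-like cells 2 members rose at 24 h, when 8.67% of 9670 genes did. Gpr171 was at 15.97, 15.3, 15.5 and 13.8 CPM in control and at 24.2, 22.1, 24.8 and 21.7 CPM at 24 h, with no overlap. Its log2 fold change of 0.56 ± 0.11 (edgeR adjusted p = 0.000392) passed in every other setting that was run. Flt3 was at 5.89, 5.86, 5.46 and 16.1 CPM in control, the last from control mouse 4 with 15 such cells, and at 6.88, 14.9, 7.10 and 9.63 CPM at 24 h (0.77 ± 0.21, edgeR adjusted p = 0.0088, against 0.25 by DESeq2), and without 24 h mouse 2 the change was 0.44 and did not pass (adjusted p = 0.19 by edgeR), nor did it without control mouse 3 (0.70, adjusted p = 0.051). Notch1 fell at 3 h from 14.3, 18.3, 14.0 and 25.3 CPM to 10.8, 11.4, 9.74 and 10.9 CPM, with no overlap (-0.58 ± 0.18, edgeR adjusted p = 0.0169, against 0.08 by DESeq2), when 10.3% of genes fell. Without control mouse 2 or 3 h mouse 3 it was -0.44 or -0.52 and did not pass (adjusted p = 0.11 and 0.079 by edgeR). At 72 h the change was -0.45 ± 0.15 (edgeR adjusted p = 0.0376; 6.64% of genes lower), a call lost without control mouse 2 (-0.32) and without any of the 4 mice at 72 h (-0.43 to -0.47). Dntt and Il7r were too low to test there, with 14 and 0 UMIs in control.

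In cluster 8, led by cell cycle genes, the control levels of Dntt, Flt3 and Satb1 were within the spread of HSC-like cells, and Satb1 fell there at 3 h. Satb1 was at 36.1, 48.0 and 60.3 CPM in 3 control mice and at 27.4, 15.6, 18.7 and 20.1 CPM at 3 h, with no overlap. Its log2 fold changes were -1.23 ± 0.27, -0.61 ± 0.18 and -0.87 ± 0.22 (edgeR adjusted p = 0.000984, 0.0469 and 0.011), when 4.18%, 0.968% and 1.86% of 8058 genes fell. The call at 3 h held in every setting that was run, whereas without control mouse 3 the later values were -0.41 and -0.67 and did not pass (adjusted p = 0.46 and 0.14 by edgeR). Dntt passed at 3 h at -2.23 ± 0.69 (edgeR adjusted p = 0.023), although the mice ranged from 0 to 70.2 CPM at 3 h and from 25.4 to 264 CPM in control and overlapped, and DESeq2 gave an adjusted p of 0.35. The Dntt call was lost without control mouse 2 (-1.67) or 3 and without 3 h mouse 1 or 4. Gpr171 passed at 72 h at -0.98 ± 0.26 (edgeR adjusted p = 0.0165) and not without control mouse 3 (-0.70, adjusted p = 0.21 by edgeR), control mouse 2 or 72 h mouse 1. At 3 h no member passed in erythroid progenitor-like, MK-like or cluster 9 cells by edgeR, where 13.3%, 10.7% and 12.4% of all genes did. Only Ikzf1 was abundant enough to be tested in all of these, and in erythroid progenitor-like cells its change at 3 h was -0.02 ± 0.14.

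In lists of genes related to the members some genes rose and others fell, and the shares among all genes are given beside the counts. A count near such a share does not set its list apart. The lists, too, were drawn up with earlier results known. Over all kept cells at 3 h, 10 of 17 genes of IL-7 receptor signalling rose and 2 fell, with a list median of 0.20 on the log2 scale against -0.03 over all genes, of which 19.7% rose and 19.2% fell. The feedback inhibitors Socs1 and Socs3 rose by 2.97 ± 0.14 and 2.01 ± 0.26, and the kinase Pim1 rose by 1.75 ± 0.13 (edgeR adjusted p = 3e-14, 2.2e-06 and 1.5e-10). Il7r itself was seen in 13 of 1661 cells at 3 h. Il2rg, the γ chain that pairs with the IL-7 receptor, was higher in LMPP-like cells at all 3 times, by 0.97, 0.97 and 0.76, whereas Bcl2, a survival gene downstream of IL-7, fell there by 0.48 and 0.30 on the log2 scale at 24 and 72 h (edgeR adjusted p = 5.1e-05 and 0.026). Bcl2 was among the genes that led the LMPP-like cluster in control cells, where the cluster was defined, so its fall is no independent result.

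Of 25 NOTCH pathway genes tested over all kept cells, 7 rose and 2 fell at 3 h, Notch1 itself not counted, where 19.7% and 19.2% of all genes rose and fell. Notch2 rose by 0.79 ± 0.09 (edgeR adjusted p = 1.8e-07), and the target Hes1 was higher by 1.09 ± 0.30 at 3 h at levels of 1.18 CPM in control and 2.12 CPM at 3 h. Dtx4, another gene of the pathway, was lower at all 3 times, by -0.91, -0.66 and -0.58. In LMPP-like cells Rbpj, the DNA-binding partner of NOTCH receptors, rose at all 3 times, by 0.78 ± 0.14, 0.41 ± 0.12 and 0.54 ± 0.13 (edgeR adjusted p = 9.4e-05, 0.024 and 0.0057).

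Of 18 FLT3 signalling genes, 6 rose and 1 fell at 3 h over all kept cells, where 19.7% and 19.2% of all genes rose and fell. With both directions counted together the share is close to the 38.8% of all genes. The Src family kinase gene Lyn rose by 0.54 ± 0.07, Sos1 by 0.78 ± 0.09 and the ligand gene Flt3l by 0.45 ± 0.15 (edgeR adjusted p = 2.4e-06, 2.6e-07 and 0.023). Among 24 tested genes of the early lymphoid programme, 8 rose and 4 fell at 3 h, where 19.7% and 19.2% of all genes did. In LMPP-like cells 2 of 20 rose and 4 fell, where 10.3% and 5.91% of all genes did, among them Cd27 (-0.45 ± 0.10) and Lsp1 (-0.56 ± 0.15), with edgeR adjusted p = 0.0012 and 0.0067. Cd27 and Lsp1 were among the 10 genes of largest fold of the LMPP-like cluster in control cells, where the cluster was defined. Their fall is therefore no independent result. Jchain, the immunoglobulin joining chain, passed at all 3 times over all kept cells, but 99.2% of its 4850 control UMIs came from 10 cells, 2838 of them from 1 cell, against 2, 13 and 23 UMIs in the treated libraries. Ly6d in LMPP-like cells likewise passed at 24 and 72 h on 112 control UMIs from 4 cells.

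Of 14 tested genes of V(D)J recombination and end joining, to which Dntt belongs by function, 3 rose and 2 fell at 3 h over all kept cells, against 19.7% and 19.2% of all genes, none passed at 24 h in edgeR, and 1 rose and 1 fell at 72 h, as against 28.3% and 37.4% of all genes at the later times. Of 16 Ikaros partners 6 rose and 2 fell at 3 h, against the same background, with Gatad2a, a subunit of the NuRD complex, higher in LMPP-like cells at all 3 times, by 0.82 ± 0.15, 0.51 ± 0.12 and 0.67 ± 0.13 (edgeR adjusted p = 9e-05, 0.0066 and 0.00074). Of 8 E protein and Id protein genes 1 rose and 1 fell at 3 h, a lower share than among all genes, and Id1, an inhibitor of E proteins, fell by 0.67 ± 0.17 and 0.81 ± 0.19 on the log2 scale at 24 and 72 h (edgeR adjusted p = 0.0052 and 0.0019). P2ry14, a neighbour of Gpr171 among the purinergic receptor genes, rose by 0.73, 0.50 and 0.54. Of 9 T lineage transcription factor genes, Gata3 and Tox rose at 3 h, by 1.36 ± 0.20 and 0.90 ± 0.23, and Ets1 and Nfil3 fell by 1.21 ± 0.19 and 0.56 ± 0.20 on the log2 scale (edgeR adjusted p = 1.3e-05, 0.0029, 1.9e-05 and 0.03). They were named for the size of their change, and over all kept cells 19.7% of all genes rose and 19.2% fell at 3 h.

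Mature lymphoid and dendritic cells also express several of these genes, and the summed levels of their markers over all kept cells were as follows. The summed level of 9 B cell markers was 42.6 to 57.2 CPM in the control mice and 31.4 to 34.6, 44.0 to 80.1 and 40.3 to 44.7 CPM at 3, 24 and 72 h. Ms4a1 was at 0 in all treated libraries, and Pax5 was at 0 at 3 h. Of 9 T cell markers 7 were in the files, with sums of 27.2 to 32.3 CPM in control and 22.5 to 31.8, 31.9 to 42.7 and 32.5 to 39.0 CPM after IFNα, and Cd3e was at 0 in all treated libraries. The 8 markers of NK and innate lymphoid cells summed to 346 to 629 CPM in control and 308 to 400, 396 to 442 and 342 to 384 CPM after IFNα, of which Nkg7 alone was 341 to 619 CPM in control, and Gzma was at 0 in all treated libraries. The 7 plasmacytoid dendritic markers summed to 19.0 to 45.1 CPM in control and 23.6 to 39.0 CPM after IFNα, and the 7 dendritic markers to 9.98 to 94.7 and 30.2 to 191 CPM. The part of these cells in the results over all kept cells was not tested. The part of the lower median depth at 3 h in the lower LMPP-like levels was not tested.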

How the data were processed

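For each gene and barcode the authors deposited the number of UMIs (raw counts), made with Cell Ranger 3.1.0 on mouse build mm10, with hashtag counts per barcode and hashtag calls made in Seurat. They were not normalized. Barcodes called as hashtag doublets or negatives were left out, and doublets of 1 mouse remain. Any 2 libraries shared at most 1 barcode among kept cells. Kept cells had a single hashtag, at least 700 genes and at most 5% mitochondrial counts. For each mouse the counts of its kept cells were added up, over all of them or over a class with at least 10 cells in that mouse.

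Control cells were clustered with scanpy 1.11.5 and leidenalg 0.10.2 (500 variable genes, 10 principal components, 15 neighbours, resolution 0.8). Names were passed to treated cells by nearest neighbours over 2000 variable genes per library after mutual nearest neighbour correction. The 7 members were left out of both steps.

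All 16 mice entered 1 fit per class in edgeR 4.0.16 (R 4.3.3, limma 3.58.1) with filterByExpr, TMM factors, the quasi-likelihood F test and Benjamini-Hochberg adjustment over all genes tested. Mice are separate animals, but a time point is 1 library, so p-values do not cover the spread between libraries. Single values were compared by exact permutation of mice (Python 3.11.15, scipy 1.17.1). Cells were thinned to 5000 UMIs for shares of cells, which left out 35, 61, 35 and 68 shallower cells in control and at 3, 24 and 72 h. Alternatives included DESeq2 1.42.0, other scaling, filters and label transfers, each mouse left out and the hashtag number as a block. The steps were tested on simulated data with 200 changed genes. Over all kept cells at 3 h (11955 genes), 70.1% of 67 genes changed 1.5-fold and 80.3% of 66 changed 2-fold were recovered, and in LMPP-like cells (9142 genes) 31.8% of 66 and 64.2% of 67.

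All 7 members are given over all kept cells, in HSC-like and in LMPP-like cells, and in the other classes those that passed or were too low to test. From 9 lists of related genes, at most 4 per list and time are named, those that passed with the largest log2 fold change over all kept cells or in LMPP-like cells, and not all of them are given. For each member, the genes of most similar pattern were taken from its 3 highest correlations among genes of at least 10 CPM in some control cluster. The members and the lists were chosen with earlier results of these data known. Positions are from the GENCODE annotation of GRCm38, and promoter windows from RefSeq.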

Additional observations from a re-analysis of the deposited data

Results flagged for a closer look

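Of 77 groups of 4 mice tested for a mouse that stands apart, 6 had one, where chance gives about 1 in 20. Over all kept cells, Dntt at 3 h was 51.2 CPM in mouse 2, against 31.2 to 33.9 CPM in the others. Il7r at 3 h was 3.76 CPM in mouse 4, against 0.654 to 1.09 CPM. Notch1 in control was 13.3 CPM in mouse 1, against 15.7 to 15.9 CPM. At 72 h mouse 4 was lowest for both Ikzf1, at 47.5 CPM against 52.7 to 53.8 CPM, and Satb1, at 21.9 CPM against 26.8 to 27.6 CPM. In HSC-like cells Gpr171 at 3 h was 93.2 CPM in mouse 2, against 62.1 to 65.5 CPM.

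In the edgeR fit of both classes, 3 responses at 24 h differed between LMPP-like and another class. The Dntt change was higher by 1.31 on the log2 scale than in HSC-like cells and by 3.52 than in MK-like cells, and the Flt3 change differed by -0.95 from that of myeloid progenitor-like cells. Each was lost without at least 1 single mouse, with adjusted p then as high as 0.50, 0.87 and 0.31 in edgeR.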

How the results depend on the processing

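The lower Flt3, Satb1 and Notch1 of LMPP-like cells at 3 h kept their direction and passed in each planned setting with all mice. Other counts of passing members moved with the setting, and the cause was not tested. DESeq2 called 1 instead of 2 members over all kept cells at 3 h and again at 24 h, and 2, 1 and 0 instead of 4, 3 and 1 in HSC-like cells at 3, 24 and 72 h. Leiden resolution 1.2 gave 1 and 0 HSC-like members at 3 and 24 h and 992, 381 and 286 called genes in LMPP-like cells, against 1515, 715 and 571. Resolution 0.5 gave no LMPP-like class and thus no values there. At 72 h, LMPP-like cells had 1 member with the likelihood ratio test, 1 with library size scaling and 2 with no filter on low counts, which also gave 1 at 24 h, against 0. HSC-like cells had 2, 2 and 3 in these settings and 2 with label transfer without called genes, against 1. The edgeR fit of both classes called 3 class differences, against 0 by permutation, which could pass only if most of 84 values reached its smallest p. The LMPP-like share at 24 h, 4.04 points above control, was 3.44 with Leiden resolution 1.2 and 3.30 with the members among the variable genes, where the unadjusted exact permutation p was 0.0286 instead of 0.0571, and at 3 h it was -0.44 points with the latter and -0.64 with label transfer without called genes, against 0.86.

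The log2 fold changes that follow changed sign, and of these only that of Gpr171 over all kept cells at 72 h had passed. With DESeq2 the values were Satb1 0.0091 at 24 h and Dntt 0.072 at 72 h over all kept cells. With Leiden resolution 0.5 the values were Il7r 0.049 at 24 h in HSC-like cells and Flt3 -0.22 at 3 h in myeloid progenitor-like cells. With Leiden resolution 1.2 the values were Satb1 0.0048 at 24 h and 0.18 at 72 h, Gpr171 0.0099 at 24 h and 0.17 at 72 h, Dntt 0.34 at 72 h, Flt3 0.094 at 72 h and Il7r 0.42 at 72 h in LMPP-like cells and Ikzf1 0.047 at 24 h in HSC-like cells. With class shares held at those of control, and CPM without TMM factors, the values were Gpr171 -0.31 at 3 h and -0.095 at 72 h, Dntt -0.23 at 24 h, Flt3 -0.17 at 24 h and -0.21 at 72 h and Ikzf1 -0.14 at 72 h over all kept cells. With edgeR's likelihood ratio test the values were Dntt 0.057 at 72 h over all kept cells and Notch1 0.034 at 72 h in cluster 8. With label transfer without called genes the values were Ikzf1 0.0062 at 24 h in HSC-like cells. With library size scaling the values were Ikzf1 -0.0089 at 72 h over all kept cells and Flt3 -0.028 at 3 h and Ikzf1 -0.0025 at 72 h in myeloid progenitor-like cells. With the members among the variable genes the values were Ikzf1 0.0023 at 24 h in HSC-like cells and Flt3 -0.019 at 3 h in myeloid progenitor-like cells. With no correction before transfer the values were Gpr171 0.021 at 24 h and 0.018 at 72 h and Flt3 0.025 at 72 h in LMPP-like cells. With no filter the values were Ikzf1 -0.0026 at 72 h over all kept cells and Ikzf1 0.0021 at 24 h in HSC-like cells.

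With 1 mouse left out, 1 to 3, 0 to 2 and 1 to 2 members passed over all kept cells at 3, 24 and 72 h, 0 to 5, 0 to 4 and 0 to 4 in HSC-like cells and 0 to 1 and 0 to 1 in LMPP-like cells at 24 and 72 h. The LMPP-like share at 24 h ranged from 3.24 to 4.76 points. The log2 fold changes that changed sign without some mouse were as follows, none of which had passed. Over all kept cells, the ranges were Dntt -0.087 to 0.43 at 24 h and -0.56 to 0.13 at 72 h, Satb1 -0.081 to 0.10 at 24 h and -0.11 to 0.071 at 72 h, Ikzf1 -0.011 to 0.090 at 24 h and -0.055 to 0.046 at 72 h and Il7r -0.17 to 0.76 at 24 h and -0.0071 to 0.80 at 72 h. In LMPP-like cells, the ranges were Il7r -1.84 to 0.18 at 3 h, -0.20 to 1.31 at 24 h and -0.77 to 0.89 at 72 h, Ikzf1 -0.25 to 0.095 at 24 h, Gpr171 -0.20 to 0.21 at 24 h and -0.20 to 0.21 at 72 h, Dntt -0.76 to 0.014 at 72 h and Flt3 -0.21 to 0.067 at 72 h. In HSC-like cells, the ranges were Il7r -1.68 to 0.18 at 3 h, -0.88 to 0.47 at 24 h and -0.82 to 0.45 at 72 h, Ikzf1 -0.10 to 0.070 at 24 h and Gpr171 -0.18 to 0.035 at 72 h. In myeloid progenitor-like cells, the ranges were Flt3 -0.028 to 0.19 at 3 h and -0.00046 to 0.29 at 72 h, Satb1 -0.081 to 0.11 at 72 h and Ikzf1 -0.023 to 0.11 at 72 h. In cluster 8, the ranges were Notch1 -1.39 to 0.041 at 3 h, -0.77 to 0.56 at 24 h and -0.49 to 0.98 at 72 h, Ikzf1 -0.057 to 0.30 at 24 h and -0.33 to 0.028 at 72 h and Dntt -0.94 to 0.40 at 72 h. In both early classes summed, the ranges were Gpr171 -0.26 to 0.020 at 3 h, -0.16 to 0.13 at 24 h and -0.11 to 0.18 at 72 h, Ikzf1 -0.16 to 0.068 at 24 h and Il7r -0.48 to 0.40 at 24 h and -0.67 to 0.066 at 72 h.

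The main fits did not treat hashtag numbers as pairs of mice. Same-numbered mice correlated at -0.122 to 0.103 in their deviations from the group means, and 5 of 16 mice correlated best with their own number. With the replicate block (hashtag number), 4674, 3397 and 4519 genes were called over all kept cells at 3, 24 and 72 h, against 4675, 3405 and 4500. The block changed 1 call of a member, Satb1 in cluster 8 at 24 h (-0.56, edgeR adjusted p = 0.098), and turned the sign of Satb1 0.024 at 24 h over all kept cells, Gpr171 0.017 at 24 h and 0.0086 at 72 h in LMPP-like cells and Dntt 0.18 at 72 h and Notch1 0.047 at 72 h in cluster 8.

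Among 1001 recomputed values with all mice, 880 kept their direction and their side of the threshold or moved little, and so did 1790 of 2017 with 1 mouse left out. Depth limits Il7r, with 129 UMIs in control.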
